A study of Mus musculus with 6 samples.

Results

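The KRAB zinc-finger gene clusters described here are 3 stretches of the mouse genome (GRCm38): chromosome 2 from 175000000 to 178100000, chromosome 4 from 145000000 to 147900000 and chromosome 13 from 65500000 to 67900000. They were represented by every deposited methylation window that lay fully inside one of these intervals, which gave 475 of 359192 windows, 107 in the chr2 cluster, 174 in the chr4 cluster and 194 in the chr13 cluster. CpG methylation was read by EM-seq, an enzymatic method that counts 5-methylcytosine and 5-hydroxymethylcytosine together, in mouse embryonic stem cells (mESCs) sorted into G1 and G2/M. Both groups were E14TG2a cells of strain 129/Ola at passages 5 to 28, grown on gelatin in serum with LIF, labelled with EdU, fixed in ethanol and sorted on Click-iT and propidium iodide signal. The groups differed in the phase sorted, each had 3 biological replicates, and libraries with the same number are matched in the study's description. The comparison asks whether methylation differs between cells about to divide and cells that have divided.

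KRAB zinc-finger proteins form the largest family of mammalian transcription factors. Each protein carries an array of C2H2 zinc fingers that reads DNA sequence, and a KRAB domain that recruits the corepressor TRIM28, which brings the histone H3K9 methyltransferase SETDB1 to retrotransposons and other targets. The genes arise by tandem duplication, so they lie side by side with pseudogenes and many near-identical copies, and their finger exons carry H3K9me3 in many cell types. In embryonic stem cells these proteins keep endogenous retroviruses silent and protect methylation at imprinted loci.

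The array is what defines these genes in sequence. Successive fingers are joined by a conserved linker peptide, and the 15-base codon pattern of that peptide was searched on both strands. The 3 clusters hold 1260 matches, which is 17.3% of the matches on all chromosomes in 0.284% of the bases in their assembly. In coding exons of the clusters, 469 of 621 neighbouring pairs of linkers (75.5%) stood exactly 84 bases apart, the length of a finger with its linker, and 617 (99.4%) stood at a multiple of it. A unit is shown from 1 gene in each cluster, on the coding strand, from one linker to the next with both linkers in capitals. The lines give Gm14295 (chr2:176809262-176809360, plus strand), Gm13212 (chr4:145623195-145623293, plus strand) and 2410141K09Rik (chr13:66432033-66432131, minus strand).
Gm14295: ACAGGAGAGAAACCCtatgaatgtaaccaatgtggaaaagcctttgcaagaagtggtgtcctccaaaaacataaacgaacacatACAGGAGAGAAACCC
Gm13212: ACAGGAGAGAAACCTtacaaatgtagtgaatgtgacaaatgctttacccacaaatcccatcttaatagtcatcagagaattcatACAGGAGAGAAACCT
2410141K09Rik: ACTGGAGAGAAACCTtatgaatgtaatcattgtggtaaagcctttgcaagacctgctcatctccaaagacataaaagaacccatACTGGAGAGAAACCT
Over these 99 bases the chr2 and chr13 units were identical at 83 positions, the chr4 and chr13 units at 70 and the chr2 and chr4 units at 65. The unit of Gm14295 holds 1 CpG and the other two hold none. The windows holding these units were methylated at 74.7% (Gm14295), 75.3% (Gm13212) and 70.0% (2410141K09Rik).

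The other end of each gene is its start. RefSeq promoters of GRCm38.p6 matched 75 of the 111 protein-coding genes of the clusters, and 55 of them belong to genes with the finger linker and begin within 100 bases of the GENCODE vM21 start. In the 250 bases before the start these 55 promoters held a median of 3 CpGs, against 6 over the 32851 promoters of the table. Only 10 of the 55 (18.2%) held more than 6 CpGs, against 46.3% of all promoters. By cluster the median was 3 on chr2 (25 promoters), 2 on chr4 (12) and 5.5 on chr13 (18). Promoters are shown for the genes with the lowest and the highest methylation of the start window in each cluster, among those with a start window of at most 75 CpGs and at least 200 bases free of annotated exons. CpGs are in capitals and the stretch ends at the start of transcription or at the first exon base. The lines give Gm14325 (chr2:177840337-177840586, minus strand; start window 11.5% methylated), Gm14393 (chr2:175067782-175068019, minus strand; 64.7%), Zfp980 (chr4:145670447-145670684, plus strand; 45.9%), Gm13212 (chr4:145584950-145585165, plus strand; 61.7%), Zfp459 (chr13:67421419-67421668, minus strand; 6.33%) and Zfp595 (chr13:67332571-67332810, minus strand; 37.5%).
Gm14325: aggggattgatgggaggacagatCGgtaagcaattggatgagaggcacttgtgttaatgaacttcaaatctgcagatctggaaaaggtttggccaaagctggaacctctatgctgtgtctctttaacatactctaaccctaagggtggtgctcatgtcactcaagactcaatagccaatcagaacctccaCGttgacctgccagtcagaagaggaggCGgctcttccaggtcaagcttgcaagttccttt
Gm14393: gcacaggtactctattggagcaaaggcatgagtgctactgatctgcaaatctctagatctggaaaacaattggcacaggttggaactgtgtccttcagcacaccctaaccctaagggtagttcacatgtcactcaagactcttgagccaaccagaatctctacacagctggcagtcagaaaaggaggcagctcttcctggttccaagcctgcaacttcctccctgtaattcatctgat
Zfp980: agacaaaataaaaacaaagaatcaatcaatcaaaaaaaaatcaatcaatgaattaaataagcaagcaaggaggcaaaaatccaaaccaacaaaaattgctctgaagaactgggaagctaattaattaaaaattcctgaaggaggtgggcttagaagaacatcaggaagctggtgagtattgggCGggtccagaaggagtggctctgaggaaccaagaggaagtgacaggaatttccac
Gm13212: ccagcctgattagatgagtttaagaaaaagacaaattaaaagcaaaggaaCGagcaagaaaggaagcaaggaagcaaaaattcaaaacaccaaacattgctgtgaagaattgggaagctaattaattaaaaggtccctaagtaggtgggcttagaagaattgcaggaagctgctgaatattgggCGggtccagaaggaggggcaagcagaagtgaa
Zfp459: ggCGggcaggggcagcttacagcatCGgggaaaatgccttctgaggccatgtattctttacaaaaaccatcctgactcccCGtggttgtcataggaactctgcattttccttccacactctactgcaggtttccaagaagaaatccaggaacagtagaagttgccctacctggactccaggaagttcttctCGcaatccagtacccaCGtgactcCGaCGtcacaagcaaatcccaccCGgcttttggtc
Zfp595: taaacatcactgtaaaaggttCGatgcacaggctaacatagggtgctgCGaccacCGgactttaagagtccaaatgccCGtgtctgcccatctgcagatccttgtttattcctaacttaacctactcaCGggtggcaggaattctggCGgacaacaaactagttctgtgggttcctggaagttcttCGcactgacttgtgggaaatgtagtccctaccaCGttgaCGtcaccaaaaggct
The chr2 pair are relatives. Gm14325 and Gm14393 were identical at 173 of 220 aligned bases (78.6%), and Gm14325 has 3 CpGs in this stretch where Gm14393 has 0. The chr4 pair, Zfp980 and Gm13212, were identical at 165 of 201 aligned bases (82.1%), with 1 and 2 CpGs. The chr13 promoters shown are richer, with 8 CpGs at Zfp459 and 9 at Zfp595.

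The windows did not cover the clusters equally. They covered 93.7% of the assembled bases of the chr13 cluster, 89.1% of the chr4 cluster and 67.8% of the chr2 cluster, against 94.0% over all chromosomes. In the chr2 cluster the longest stretch without a window was 991.6 kb, from 175177458 to 176169036, and it holds 14 protein-coding genes from Gm14391 to Gm2004, 12 of them with the finger linker, which are not analysed here. Of the 75-base words of the chr2 cluster, 95.8% outside windows and 74.3% inside windows occur more than once in the cluster. The corresponding shares were 58.5% and 43.9% on chr4 and 50.8% and 37.7% on chr13. Reads of low mapping quality had been discarded before deposit, and the cells are of another strain than the reference. The part of either in the coverage was not tested. Some windows bridge long stretches with few observed CpGs. The longest, on chr2 from 176169037 to 176708098, spans 539062 bases and 2474 CpGs over Zfp967, Gm14308, Zfp973 and other genes, and is 1 value (67.9%) for all of them. More than 75 CpGs were spanned by 130 of the 475 windows (27.4%), against 3.94% of the rest of the genome.

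The clusters were less methylated than the rest of the genome, and the 3 clusters stood at different levels. Mean methylation over the 475 windows was 58.4%, 56.0% and 63.9% for replicates 1, 2 and 3 of G1 (59.4% ± 4.07, SD, n = 3). The corresponding G2/M libraries had 58.9%, 57.1% and 63.9% (59.9% ± 3.51, SD, n = 3). Replicate 3 was the highest in each phase, in the clusters as in the rest of the genome, so levels were compared within libraries. The clusters lay below the rest in all 6 libraries, with differences from -5.24 to -2.98 percentage points and a mean of -4.23 (two-sided exact sign-flip test over 3 matched replicates, p = 0.25, the smallest p that 3 allow). They also lay below their flanks, 991 windows in stretches on either side that together are as long as the clusters, with a mean difference of -4.92 percentage points and at most -3.54 in every library (exact sign-flip test, p = 0.25). That pooled difference is larger than the one in any single cluster, because 617 of the 991 flank windows but only 107 of the 475 members lie on chr2, where methylation is high.

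The chr2 cluster was the most methylated, with a G1 mean of 66.3% ± 4.50 and a G2/M mean of 67.7% ± 3.57 (SD, n = 3 each), and it lay 1.51 to 5.03 percentage points above the rest of the genome. The chr4 cluster had 61.0% ± 3.93 and 61.5% ± 3.78 (SD, n = 3 each) and differed from the rest by -3.86 to -1.54 points. The chr13 cluster had 54.2% ± 3.97 and 54.3% ± 3.23 (SD, n = 3 each) and differed from it by -10.6 to -8.36 points. Relative to the rest, the 3 ranges did not overlap, so chr2 was above chr4 and chr4 above chr13 in each of the 6 libraries. Against their own flanks all 3 clusters were closer: 67.0% against 68.6% on chr2, 61.3% against 59.2% on chr4 and 54.3% against 57.4% on chr13, as means of 6 libraries. The chr4 cluster was above its flanks in all 6 libraries and the chr13 cluster below in all 6, while the chr2 cluster was below in all but replicate 1 of G2/M. These differences by cluster were not tested.

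**Figure D1:**
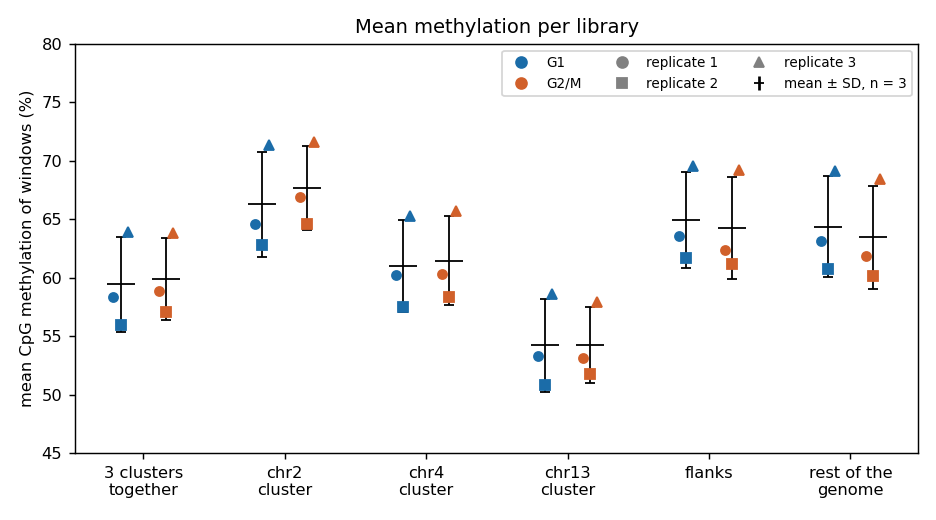
Mean CpG methylation (%, axis from 45 to 80) over the windows of the 3 clusters, of each cluster, of their flanks and of the rest of the genome; each point is 1 library, and black bars are the mean ± SD of the 3 replicates of a phase. The chr2 cluster is highest and the chr13 cluster lowest, and the triangles of replicate 3 lie above the other two in each set.

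Methylation was intermediate over most of each cluster. Of the 475 windows, 444 had a mean over 6 libraries between 20% and 80%, 22 (4.63%) were above 80% and 9 (1.89%) below 20%, against 3.88% and 3.51% in the rest of the genome. The chr2 cluster held 16 of the 22 high windows, and the chr13 cluster held 5 of the 9 low ones. The median spread of a window between replicates was 5.84 percentage points (SD within a phase, after each library was centred on its mean over all 475 windows). It was much the same in the rest of the genome (5.77, centred likewise on the mean of those windows).

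**Figure D2:**
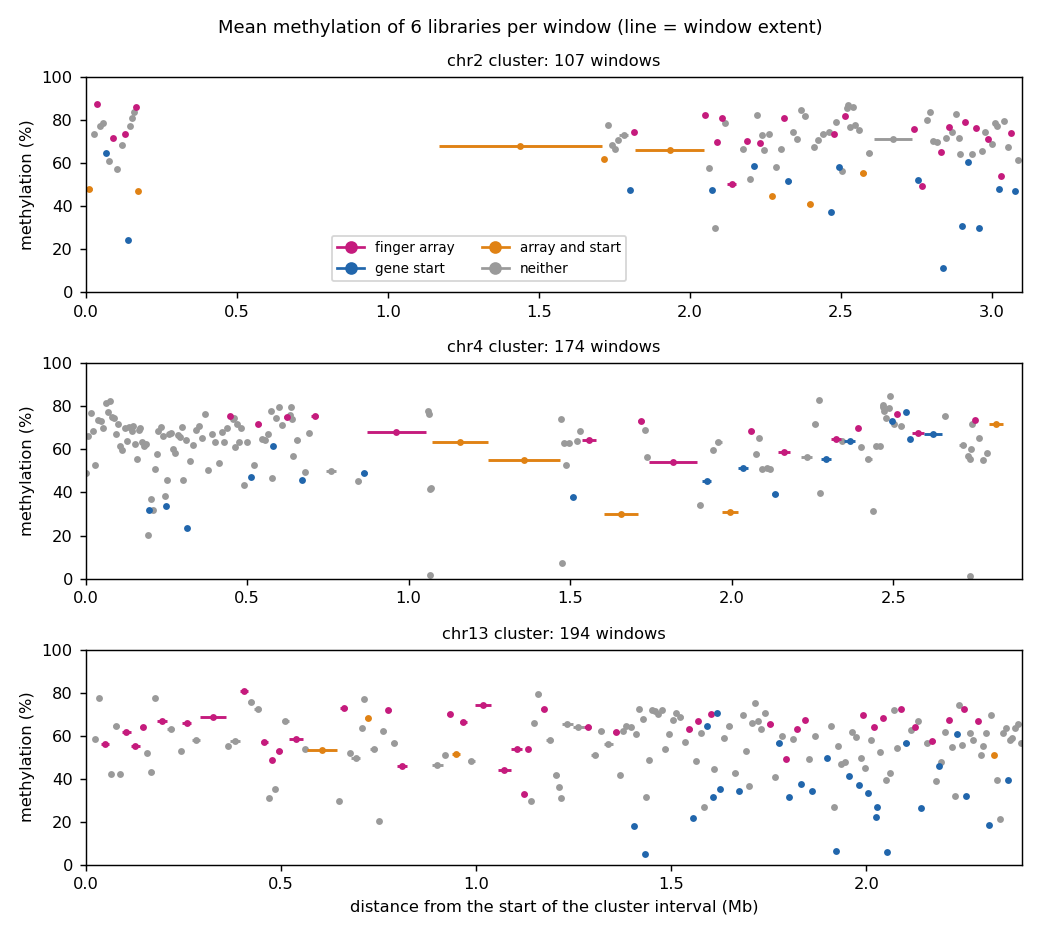
Mean methylation over 6 libraries (%) of every window along each cluster, against distance from the start of the interval in Mb; lines show the extent of long windows and colours mark windows with a finger array, a gene start, both or neither. Low values are mostly gene starts, and the empty stretch of the chr2 panel is the 991.6 kb without windows.

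Within the clusters, windows with finger arrays were on average more methylated and windows with gene starts less methylated than all other members. A window was counted as an array window when it held at least 3 linker matches on one strand, and as a start window when it held the 5′ end of a protein-coding gene. The 96 array windows averaged 63.7%, 60.5% and 68.3% in G1, against 64.2%, 61.8% and 68.3% in G2/M, which was 6.0 percentage points above the other members (5.50 to 6.72 in the 6 libraries; exact sign-flip test, p = 0.25). The 76 start windows averaged 43.3%, 41.0% and 48.2% in G1, against 43.9%, 43.7% and 47.5% in G2/M, which was a difference of -18.0 points from the other members (-19.4 to -15.9 in the 6 libraries; exact sign-flip test, p = 0.25). The other members of the array comparison include the low start windows. Against the 320 windows with neither an array nor a start, which averaged 61.5%, array windows averaged 64.5% as means of 6 libraries. By cluster, arrays averaged 68.0% against 72.0% for windows with neither on chr2, 64.5% against 62.0% on chr4 and 62.1% against 55.7% on chr13. Array windows that also hold a gene start are counted among the arrays here. On chr2 the 84 windows without a start, with or without an array, averaged 72.2%. The lower chr2 value is therefore not one of arrays without a start. These differences were not tested. Weighting windows by length, which gives the bridging windows most of the weight, reduced the array and start differences from the other members to 2.04 and -6.38.

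Arrays were methylated in other parts of the genome too. The 421 array windows outside the clusters averaged 67.0%, and the cluster arrays differed from them by -3.44 to -1.59 percentage points, with a mean of -2.47 (exact sign-flip test, p = 0.25). Within the clusters, array windows averaged 68.0% on chr2 (31 windows), 64.5% on chr4 (20) and 62.1% on chr13 (45). No array window of the clusters was below 20%, and the lowest stood at 29.8%.

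Most start windows of the clusters had intermediate methylation. They averaged 44.6% with a median of 47.1%, close to the 14900 start windows elsewhere (41.9% and 47.2%), but they were spread less: the middle 50% ran from 31.9% to 57.1%, against 17.8% to 65.4% elsewhere. Only 6 of the 76 (7.89%) were below 20%, against 26.8% of start windows elsewhere. By cluster they averaged 50.9% on chr4 (22 windows), 48.0% on chr2 (23) and 37.7% on chr13 (31). A start window spans a median of 10004 bases here against 4017 elsewhere, so its value includes much sequence around the promoter. The medians by cluster were 17726 bases on chr4, 11663 on chr2 and 7340 on chr13. The part of window length in the differences between clusters was not tested.

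Gene by gene the array was more methylated than the start. Of the 111 protein-coding genes of the clusters, 92 carry the linker in their coding exons, with a median of 8 and at most 16 matches, and 14 of these have no window. Here the array window of a gene was the one holding most of its linker matches, however few. It held only 2 in some genes, among them Zfp459 and Gm14393. In 23 genes start and array fell in the same window. In the other 50 genes with both, the window holding most of the array was the more methylated one in 48, and in 36 of these in each of the 6 libraries. The difference averaged 24.3 percentage points over genes, from 22.3 to 26.3 in the 6 libraries (exact sign-flip test over matched replicates, p = 0.25). It was 27.3 on chr2, 14.5 on chr4 and 27.4 on chr13. Start windows varied more between these genes (SD 16.5 percentage points over genes) than array windows did (SD 8.31). Neighbouring genes share windows in places, and the 50 genes rest on 49 start and 48 array windows.

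**Figure D3:**
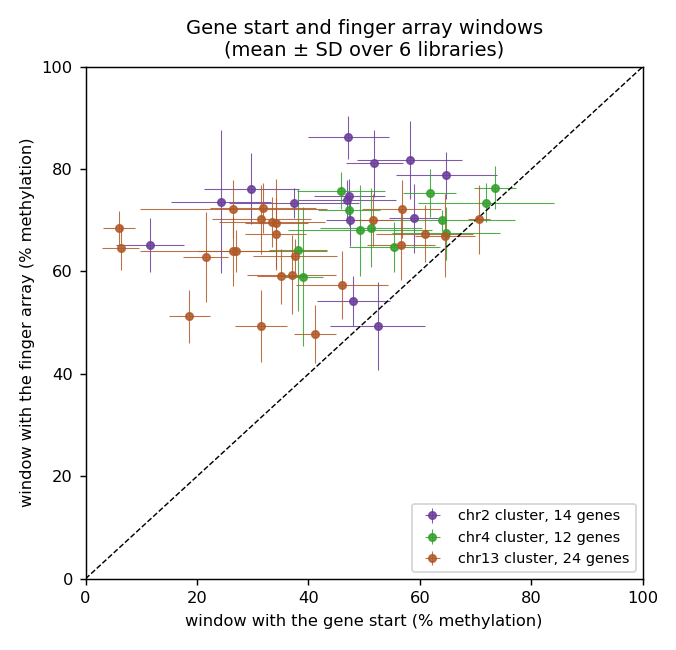
Methylation (%) of the window with the gene start (horizontal axis) and of the window with the finger array (vertical axis) for the 50 genes in which the windows differ; points are means and bars SDs over 6 libraries, and the dashed line marks equal values. Points of 48 genes lie above the line, and starts spread from 6.04% to 73.4% while arrays stay between 47.8% and 86.2%.

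The chr13 cluster held the widest contrasts. Zfp748 had the lowest start window of the finger genes, on chr13 from 67552664 to 67554467 (1804 bases), at 2.42%, 6.98% and 8.62% in G1, against 8.33%, 7.45% and 2.42% in G2/M, whereas its array window stood at 68.4% ± 3.46 (SD over 6 libraries). Zfp459, whose promoter is printed above, had a start window at 5.68%, 9.76% and 7.22% in G1, against 2.19%, 10.0% and 3.13% in G2/M, and an array at 64.7% ± 4.34 (SD over 6 libraries). The libraries of the phases overlapped in both genes.
Zfp273 (18.6% at the start and 51.2% at the array), Zfp712 (21.6% and 62.9%) and Zfp87 (27.1% and 64.0%) followed the same pattern. Rsl1, named as a regulator of sex-limited liver genes, had 34.3% at its start and 69.4% at the window of its array. Its coding exons have only 1 linker match, and that window holds it. Rslcan18, in the same cluster, was one of the 2 exceptions, with 70.6% ± 1.96 at the start and 70.2% ± 6.81 at the array (SDs over 6 libraries), which do not differ beyond their spread. The lowest window of this cluster, at 5.06%, belonged to no finger gene but to the start of Ptdss1, a phosphatidylserine synthase gene next to Mterf3.

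In the chr2 cluster, Gm14325 had the lowest start window, on chr2 from 177835468 to 177842088. It stood at 9.56%, 4.55% and 22.7% in G1, against 12.4%, 11.7% and 8.33% in G2/M, with an array at 65.2% ± 5.28 (SD over 6 libraries). Replicate 3 of G1 was its only value above 20%. Gm14399 (24.3% and 73.6%), Gm14326 (29.8% and 76.2%) and Zfp970 (37.4% and 73.4%) also had low starts and methylated arrays. The array of Gm14443 was among the 3 most methylated windows of the cluster at 86.2%, with a start at 47.2%. Gm14322 was the other exception, with 52.4% at its start and 49.4% at its array, a difference smaller than the spread of either (SD 8.52 and 8.63 over 6 libraries).

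In the chr4 cluster starts and arrays stood closer together, but in longer windows. The start windows of its 12 genes with distinct windows had a median of 15778 bases, against 10256 on chr2 and 7542 on chr13. The part of window length in the smaller difference was not tested. Zfp980 had 45.9% at its start and 75.7% at its array, Zfp990 had 47.2% and 71.9%, and Zfp991 had 39.1% and 59.0%. At the other end, Zfp982 had 73.4% at its start, the highest of the 50 genes, and 76.3% at its array, and Zfp985 (64.7% and 67.5%) and Zfp984 (71.8% and 73.5%) differed by less than their spread over libraries. The start window of Zfp984 spans 43765 bases and also holds 10 linker matches of the neighbouring gene Zfp933. Rex2 had 51.2% at its start and 68.6% at its array. Zfp600 and Zfp987 fell in a single window of 171945 bases at 63.4%, and the windows of Zfp993 (29.8%) and Zfp989 (31.0%) likewise hold both ends of the gene. Among 12 chr4 genes the array was higher in all 12, but in each of the 6 libraries in only 5.

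Of the 36 cluster genes listed for description, 32 are annotated under that name, 30 have an array window and 28 a start window. Start and array windows were distinct in 24, and the array was the higher in all 24, with arrays from 49.3% (Zfp457) to 78.8% (Gm14393) and starts from 6.04% (Zfp748) to 64.7% (Gm14393). Gm14391 and Zfp534 have neither window.

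Around the starts of finger genes, methylation was lowest at the start itself. Over the cluster genes with the linker, windows of at most 30 kb averaged 62.1% at 20 kb before the start (57 genes), 57.3% at 5 kb before it (55 genes), 43.7% at the start (54 genes), 51.3% at 5 kb after it (56 genes) and 64.5% at 15 kb after it (55 genes). The trough was present in each of the 6 libraries, where the value at the start ranged from 39.6% to 46.6%.

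**Figure D4:**
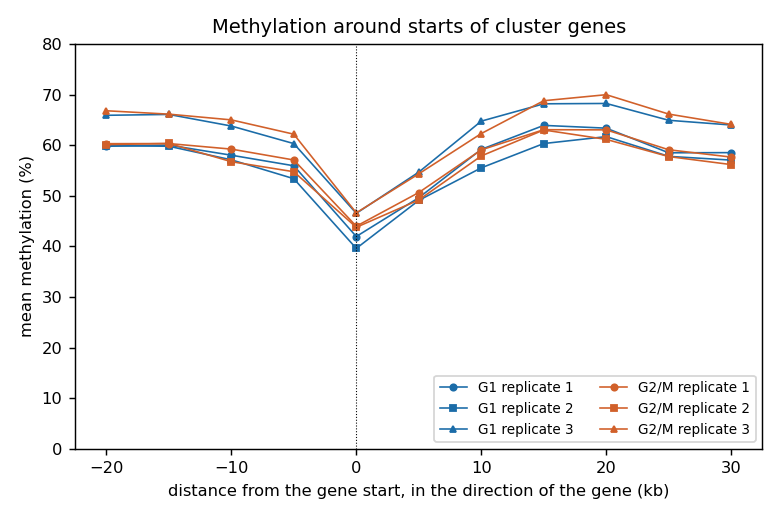
Mean methylation (%) of the windows of at most 30 kb that hold a given distance from the start of finger genes in the clusters (kb, in the direction of the gene; 54 to 58 genes at each distance), with 1 line for each library. All 6 lines have their lowest point at the start, between 39.6% and 46.6%.

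The promoters with most CpGs had less methylated start windows, but all of them lay in the cluster whose starts were lowest. Over 25 start windows of at most 75 CpGs, the number of CpGs in the 250 bases before the start and the methylation of the window had a Spearman correlation of -0.393, given as a description of windows that share libraries. Within clusters it was -0.317 on chr2 (10 windows), 0.5 on chr4 (3 windows) and 0.0673 on chr13 (12 windows). The 5 promoters with at least 8 CpGs, of Zfp459, Zfp712, Zfp874b, Zfp595 and Zfp874a, lie on chr13, and their start windows ran from 6.33% to 41.1%. The 11 with at most 3 CpGs ran from 11.5% (Gm14325) to 73.4% (Zfp982).

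Repeat-rich windows were the more methylated ones, over a wider range in the clusters than elsewhere. The clusters are rich in repeats of any class, with a median of 37.4% of bases masked per window against 25.8% in the rest of the genome, and 55.2% on chr2. Windows with under 20% of bases in repeats averaged 50.6% methylation (53 windows), and the next classes averaged 56.6% at 20% to 40% (212 windows), 62.0% at 40% to 60% (133 windows) and 70.3% above 60% (77 windows). In the rest of the genome the same classes had 61.8%, 64.6%, 64.2% and 68.1%. The clusters thus stood below the rest of the genome in each class except the most repeat-rich one. This difference between the clusters and the rest was not tested. Across windows the Spearman correlation of methylation with repeat share was 0.373 in the clusters and -0.0296 in the rest of the genome, as a description of windows that share libraries. It was 0.541 on chr2, 0.205 on chr4 and 0.213 on chr13.

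The lowest windows of the chr4 cluster were not at zinc-finger genes. The lowest, on chr4 from 147738602 to 147739071, spans 470 bases with 56 CpGs and had 0%, 0% and 2.33% in G1, against 0%, 4.35% and 0% in G2/M. The next, from 146067506 to 146067813, spans 308 bases with 50 CpGs and had 0.769%, 0.585% and 5.47% in G1, against 0%, 0% and 2.24% in G2/M, and it overlaps the processed pseudogene Gm13034. The phases overlapped in both, and both stood under 6% in all 6 libraries. These windows were identical at 241 of 251 aligned bases (96.0%), in opposite orientation. The second matched 7 places on the chromosomes over its 308 bases, itself included, at 94.8% identity or more. Of these, 6 lie in the chr4 cluster and 1 lies inside exon 1 of Smarca5 on chromosome 8, which encodes the ATPase of ISWI chromatin remodelling complexes. One of the copies is annotated as Smarca5-ps and lies in no window. A window of 445 bases holds 172 of the 308 bases of the match at Smarca5 itself and had 11.2% on average, from 0% to 28.1% in the 6 libraries. The copies at 145640912, 147275731 and 146942230 lie partly or wholly in longer windows, of 4804, 2693 and 12726 bases, at 56.9%, 39.7% and 59.7%, whose values come mostly from other sequence. The third lowest window, from 146474928 to 146475813 at 7.16%, overlaps the processed pseudogene Gm13241 and also had relatives nearby: of 10 matches over at least 400 bases, itself included, 9 lie in the chr4 cluster.

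Methylation of the clusters did not differ detectably between phases in absolute level. The difference of G1 minus G2/M was -0.494 percentage points over all members (two-sided exact permutation test, p = 0.80), with matched differences of -0.458, -1.09 and 0.0712 (replicate block, exact sign-flip test, p = 0.50). It was -1.42 on chr2, -0.425 on chr4 and -0.0466 on chr13, with exact permutation p-values of 0.60, 0.70 and 1. The replicates of a phase ranged over more than 6 points, and the sign of each of these differences changed when some single libraries were left out.

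Relative to the rest of the genome, however, the clusters stood higher in G2/M than in G1 in each matched pair. G1 minus G2/M was 0.874 percentage points in the rest of the genome and -0.494 in the clusters, so the clusters stood at -4.72, -4.79 and -5.24 points from the rest in G1, against -2.98, -3.05 and -4.61 in G2/M. The shift, -1.37 points, reached the smallest p that 3 libraries against 3 allow (p = 0.10, exact permutation test, two-sided), since every G1 library lay below every G2/M library. The matched differences were -1.74, -1.74 and -0.628 (replicate block, exact sign-flip test, p = 0.25). With 3 replicates in each phase no result of this kind can pass 0.05.

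The shift was largest on chr2, at -2.29 percentage points with pairs of -3.51, -2.42 and -0.940, and was -1.30 on chr4 with pairs of -1.33, -1.48 and -1.09 (exact permutation test, p = 0.10 for each). On chr13 it was -0.920 with pairs of -1.12, -1.59 and -0.0460, and the phases overlapped (exact permutation test, p = 0.30). Whether the shift differs between clusters was not tested. Over all members the shift kept its sign in each alternative run, between -1.90 and -1.09 without single libraries and between -1.88 and -1.10 in the others. With windows weighted by length the phases overlapped. The exact permutation test then gave p = 0.20 over all members, 0.30 on chr2 (-1.88 points) and 0.70 on chr4 (-0.688 points). The shift of all members was -1.30 over windows of at most 75 CpGs and -1.88 against windows of the same length classes, both chosen after seeing the data.

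**Figure D5:**
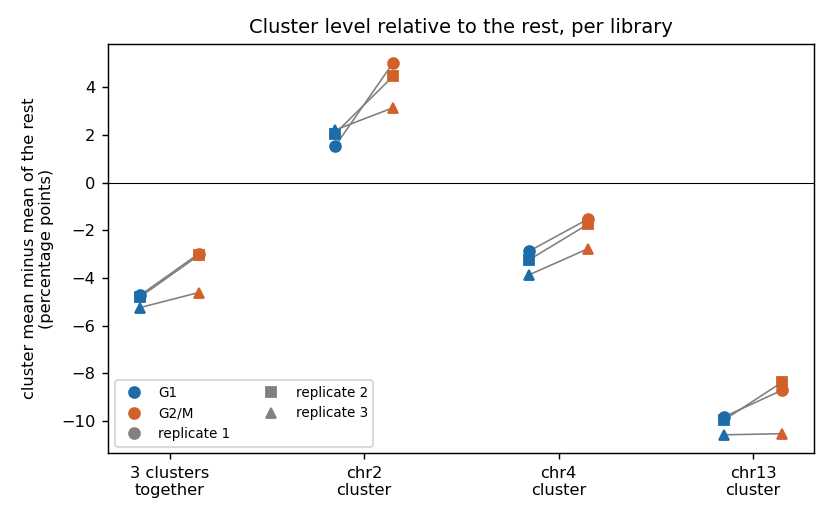
Mean methylation of the cluster windows minus that of the rest of the genome (percentage points) in each library; lines join matched G1 and G2/M replicates. The G2/M point lies above the G1 point on every line, with values going from -4.72, -4.79 and -5.24 to -2.98, -3.05 and -4.61 for the 3 clusters together, and the line of replicate 3 on chr13 is nearly flat.

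Over all 76 start windows of the clusters, G1 minus G2/M relative to start windows elsewhere was -1.34 points (exact permutation test, p = 0.20). Its pairs were -1.59, -2.79 and 0.351, which differ in sign. By cluster the shift of start windows was largest on chr2. The 23 start windows of the chr2 cluster averaged 43.8%, 43.7% and 50.1% in G1, against 50.3%, 48.0% and 51.8% in G2/M, and relative to start windows elsewhere G1 minus G2/M was -4.67 points with pairs of -7.54, -4.38 and -2.09 (exact permutation test, p = 0.10). The same difference was -0.0634 on chr4 (p = 1) and 0.214 on chr13 (p = 0.90, exact permutation tests), where the pairs differed in sign. In absolute level, the 61 chr2 windows with neither start nor array averaged 72.0% in G1, against 71.9% in G2/M. Their G1 minus G2/M was 0.128 points, with pairs of -0.439, -0.613 and 1.44. In the rest of the genome it was 0.874, with pairs of 1.28, 0.642 and 0.700. Whether these windows shifted relative to the rest was not tested. Array windows of the clusters differed from arrays elsewhere by -0.242 between phases (exact permutation test, p = 0.80). In absolute level, the 31 array windows of the chr2 cluster were lower in G1 in 3 of 3 pairs, with differences of -3.38, -2.40 and -2.95 points, but the phases overlapped (exact permutation test, p = 0.30). These phase comparisons of start and array windows were not among the planned ones, and no alternative settings were run for them.

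Single windows were tested with limma on the log2 ratio of methylated to unmethylated percentage, over the whole table. After Benjamini-Hochberg adjustment 0 of the 475 members had p under 0.05 in limma, against a background of 0.00223% of all windows (8 windows). At an unadjusted p under 0.05 there were 12 members (2.53%, background 2.11%), 3 of them higher in G1 (0.632%, background 1.36%) and 9 higher in G2/M (1.89%, background 0.75%). All 3 matched differences were above 0 in 61 members (12.8%, background 16.3%) and below 0 in 58 (12.2%, background 9.74%). The G1 libraries all lay above the G2/M libraries in 16 members (3.37%, background 4.12%) and all below in 20 (4.21%, background 1.98%). Shares of members with G1 higher were under the background and those with G2/M higher above it. For G1 this did not hold in each limma run. Without G2/M replicate 1, 5 of 475 members were higher in G1 at an unadjusted p under 0.05. That was a larger share than the 2395 of 359192 windows in the whole table. The median difference was -0.331 percentage points in the members and 0.923 over the whole table. With the replicate block, 25 members (5.26%, against 4.83% of all windows) had an unadjusted p under 0.05, 20 of them higher in G2/M (4.21%, against 1.74%). With libraries centred on their medians 27 had (5.68%, against 4.90%), 23 of them higher in G2/M (4.84%, against 2.70%). Members higher in G2/M numbered 5 (1.05%) without G1 replicate 1, against 0.531% of all windows, and 5 (1.05%) without G2/M replicate 3, against 0.413%. They numbered 19 (4.00%) without G1 replicate 3, against 2.24%, and 15 (3.16%) without G2/M replicate 2, against 1.14%.

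The window with the smallest p among members held the starts of Zfp729a and Gm49345, on chr13 from 67636803 to 67645923 (9121 bases, 173 CpGs). It had 19.4%, 4.55% and 14.0% in G1, against 42.2%, 47.7% and 31.3% in G2/M. The phases did not overlap, but the limma adjusted p was 1 (unadjusted p = 0.00237), and the alternatives gave adjusted values from 0.894 to 1. The array windows of these genes had 72.1% (Gm49345) and 63.9% (Zfp729a) as means of 6 libraries, and the phases overlapped in each. A window between genes on the same chromosome, from 66638547 to 66642576, had 17.0%, 18.1% and 22.7% in G1, against 47.7%, 47.3% and 25.4% in G2/M, again without overlap (limma adjusted p = 1). In the other direction, the window from 67803950 to 67810909, over the antisense gene 4930525G20Rik and the pseudogene Gm9625, had 68.7%, 69.0% and 74.2% in G1, against 51.9%, 49.3% and 54.5% in G2/M, and the window from 66555665 to 66589860, which holds 10 linker matches in pseudogenes, had 62.2%, 45.5% and 50.0% in G1, against 40.2%, 31.3% and 35.8% in G2/M (limma adjusted p = 1 for both).

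On chr4, the start window of Zfp978 (147347510 to 147382849) had 53.6%, 42.9% and 65.2% in G1, against 76.1%, 69.9% and 75.6% in G2/M, and that of Rex2 (147018996 to 147051204) had 55.1%, 51.04% and 67.1% in G1, against 43.2%, 47.9% and 42.5% in G2/M. These went in opposite directions, and the phases overlapped in neither. Over the pseudogene Gm13244 and the lincRNA Gm13236, the window from 145745445 to 145774601 was lower in G1 in each pair but had libraries from 17.2% to 65.0% in G1 alone, and the window from 146727594 to 146735358, over the lincRNA Gm26573, was higher in G1, at 74.6% to 76.5% against 48.5% to 69.9%. On chr2, the start window of Zfp970 (177462174 to 177472170) had 29.5%, 20.2% and 39.1% in G1, against 44.6%, 37.6% and 53.7% in G2/M, with overlap between the phases. The 3 other chr2 windows named by the same rule differed by 8.25, 8.82 and -16.1 points. The array window of Gm14322, also on chr2, was chosen after its values were seen: it had 38.3%, 42.5% and 44.6% in G1, against 56.1%, 55.3% and 59.4% in G2/M, without overlap. Limma adjusted p was 1 for each of these windows.

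Genes of the repression pathway that KRAB zinc-finger proteins use lie outside the clusters. Start windows were found for 8 of 11: the corepressor Trim28 (73.0%), the methyltransferase Setdb1 (44.1%) and its partner Atf7ip (66.4%), Atrx (55.9%), Morc3 (4.11%), Smarcad1 (3.07%), and Morc2a and Cbx5, which encodes HP1alpha, listed at 0% in all 6 libraries. The windows of Trim28, Setdb1, Atf7ip and Atrx span 4963 to 7392 bases and the others 686 to 2483 bases. The higher values thus include more sequence around the start, and the part of window length in them was not tested. None of the 8 had 3 matched differences above 0 (16.3% of all windows) and 1, Smarcad1, had them below 0 (9.74% of all windows). With 8 windows these counts cannot be told from those shares. Of 5 KRAB zinc-finger genes outside, 3 had a start window, Zfp568 (0%), Zfp819 (1.00%) and Zfp932 (32.5%). The first 2 stood below every start window of the clusters, but span 1557 and 2329 bases against a median of 10004 there. Stem cell identity could be read only in part from methylation: the start window of Nanog had 17.6%, 19.1% and 22.7% in G1, against 6.64%, 10.8% and 6.38% in G2/M, and that of Pou5f1 was a bridging window of 188569 bases at 55.0%, while Sox2 and Zfp42 had none.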

How the data were processed

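CpG methylation was measured by EM-seq (75 bp paired-end reads) in 3 G1 and 3 G2/M libraries of E14TG2a mESCs. Per the labels and the study's methods, the authors trimmed reads with Trim Galore 0.6.4, mapped them to GRCm38 with Bismark 0.22.1 and Bowtie2, removed duplicates, reads of mapping quality under 20 and outlier regions, and deposited the percentage of CpG methylation per window of 100 CpGs in which at least 1 in 5 CpGs were observed in every library. The deposited table gives percentages without coverage, so the depth behind a value is unknown and no counting error can be given. Windows held a median of 59 CpG dinucleotides of the reference in the clusters and 51 in the rest of the genome, and far more where they bridge unobserved sequence.

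The clusters, the gene lists and the rules for naming windows were chosen with earlier results of these data known. Windows were annotated with GENCODE vM21 and the GRCm38.p6 sequence, which is of strain C57BL/6J, while the cells are 129/Ola; the effect of that difference was not tested. Named windows were the 3 lowest and 3 highest of each cluster, up to 2 in each direction with the largest phase difference among those with 3 matched differences of one sign, and a list of finger genes. For library means, phases were compared with the exact two-sided permutation test (20 labelings) and levels with exact sign-flip tests over 3 matched replicates. Single windows were tested with limma 3.58.1 (R 4.3.3) on log2((percent + 1)/(100 - percent + 1)) over all 359192 windows with Benjamini-Hochberg adjustment. The pairing follows the replicate numbers and the study's own description; deviations of same-numbered libraries correlated at 0.0742, 0.0441 and 0.0224 over the members. The procedures were checked on simulated data. For limma the simulated libraries had independent noise in each window. That check therefore did not cover a level shared by all windows of a library, such as that of replicate 3. Protein sequences were not used here, so the KRAB domain was not searched for.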

Additional observations from a re-analysis of the deposited data

How the results depend on the processing

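The difference between phases in the plain member mean had no stable sign. With windows weighted by length it was 0.124 percentage points over all members, 0.540 on chr4 and 0.340 on chr13, and without single libraries it ran from -2.74 to 1.47 over all members, from -3.96 to 0.538 on chr2, from -2.56 to 1.69 on chr4 and from -2.22 to 1.78 on chr13. The difference relative to the rest of the genome kept its sign in every alternative run, with the replicate block giving p = 0.25 in the exact sign-flip test, the smallest possible. With windows weighted by length the phases overlapped in this difference (exact permutation test, p = 0.20 over all members). Members with an unadjusted limma p under 0.05 numbered 27 with centred libraries, 25 with the replicate block and from 10 to 21 without single libraries. Those higher in G2/M numbered 23, 20 and from 5 to 19, while the share of all windows so called was 2.70%, 1.74% and from 0.413% to 2.24%. No member passed the adjusted threshold in any limma alternative. The level differences kept their sign: -5.10 to -3.25 against the rest of the genome, 2.04 to 6.92 for arrays and -19.3 to -6.38 for starts. The smallest array and start differences came from weighting by length, and the smallest difference from the rest of the genome from windows of at most 75 CpGs. Why these settings moved the values was not tested. With 3 replicates a phase and unknown depth, small differences in single windows cannot be resolved. 2 of the settings, windows of at most 75 CpGs and windows of equal length class, were added after seeing the data, in 12 runs. Both were run for the phase shift relative to the rest of the genome, over all members and each cluster. The limit of 75 CpGs was also added for the level against the rest, over the same sets.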
